A study of Arabidopsis thaliana with 28 samples.

Results

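The genes described here belong to leaf starch metabolism in Arabidopsis thaliana: DPE1 and PWD act in starch breakdown, and SBE2.2 and APL3 in starch synthesis. The 4 names were picked with earlier results of these data known, and every gene with a probe set annotated to one of them was taken. This gave 5 of the 13286 genes to which the annotation used gives a probe set of their own, because 2 loci carry the name PWD. That annotation lists 14016 of the 22810 probe sets, so a gene without a named probe set may still be on the array. PWD is used below for AT5G26570, and the other locus is called AT4G24450. Of the 5 genes, 4 passed the filter on low signal and were tested, and AT4G24450 did not.

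The series followed leaves of Col-0 plants, the common laboratory accession, in a treatment called ambient CO2 and low light, within a study of how leaves signal irradiance and CO2 concentration to one another. Its arrays cover 6 times in developing leaves of insertions 19 to 21 (2, 4, 12, 24, 48 and 96 h, n = 4 each) and 1 time in mature leaves (24 h, n = 2). All groups shared the accession, compost, a growth room at 20 °C and 50% humidity, and a 10 h light period. The array files hold no group without the treatment, so an effect of low light itself cannot be measured here. From 2 to 24 h the hour of the day moved with the hour of treatment, so those cannot be told apart there. Developing leaves also grew older with the hours of treatment, so time and leaf age cannot be told apart from 2 to 96 h. By their labels 24, 48 and 96 h lie whole days apart, and mature and developing leaves share the time of 24 h. No insertion is given for the mature leaves, so leaf age cannot be told apart from leaf position or other differences between these leaves. The clock times of sampling and the number of plants behind each sample are not given in the sources used here. Nothing says that replicates were separate plants, so p-values measure the spread between these samples, which may be technical.

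A leaf builds starch in its chloroplasts by day and breaks it down at night to supply sugar to the plant. In synthesis, ADP-glucose pyrophosphorylase makes ADP-glucose, the building block of the chains, and branching enzymes add the branch points. In breakdown, dikinases put phosphate on the surface of the granule, which opens it to beta-amylases, and a disproportionating enzyme recycles the short chains they leave behind. PWD is the phosphoglucan water dikinase that acts after the first dikinase, and DPE1 is the plastid disproportionating enzyme. SBE2.2 is a starch branching enzyme and APL3 a large subunit of ADP-glucose pyrophosphorylase.

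Signal here is the deposited MAS5 signal of a probe set, a linear intensity on arrays that each have a 2% trimmed mean of 100. The array medians ran from 40.8 to 48.1. Leaf identity was checked with 8 leaf markers. Named probe sets existed for 6, with signals in single replicates from 217 (LHCB4.3) to 5060 (LHCB4.2). The shoot meristem marker CLV3 had signals of 1.57 to 4.17 in single replicates, and no marker of flower, epidermis, guard cell or seed had a named probe set. Replicate 1 of 24 h in developing leaves is the mean, in log2, of the 2 arrays that bear this title. Signals of different probe sets are not compared as amounts, since each probe set has its own affinity.

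PWD, on the breakdown side, rose over the first 12 h and then fell: its signal went from 163 ± 17.4 at 2 h to 467 ± 27.1 at 12 h (SD, n = 4 each) and was back at 163 ± 18.5 at 24 h. In replicates 1 to 4 its signal was 182, 143, 171 and 155 at 2 h. At 4 h it was 310, 289, 255 and 231, and at 12 h 482, 495, 455 and 435. Every 4 h sample lay above every 2 h sample, and every 12 h sample above every 4 h sample. At 24 h the signals were 143, 155, 169 and 186, which overlap those at 2 h and lie below all at 4 and 12 h. They were 148, 129, 141 and 139 at 48 h, 120, 131, 126 and 128 at 96 h, and 146 and 133 in the 2 mature samples. From 24 h on, therefore, PWD stayed within a narrow band, in which 96 h did not overlap 24 h, while groups next to each other in mean did overlap.

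The log2 change of PWD was 0.70 ± 0.0954 (SE) at 4 h against 2 h, a 1.62-fold rise (limma, adjusted p = 2.4e-05). Here and below, changes and folds are on the scale of log2(signal + 10), which understates the change of weak probe sets, and a call is an adjusted p under 0.05 over all 13647 probe sets tested. Between 4 and 12 h PWD rose a further 1.70-fold (limma, adjusted p = 5.8e-07), so that 12 h stood 2.77-fold above 2 h (adjusted p = 1.9e-12). It then fell by 1.47 on the log2 scale from 12 to 24 h, which is 2.76-fold (limma, adjusted p = 9.5e-13). At 24 h against 2 h the difference was 0.00, with a 95% interval of -0.19 to 0.20. From 24 to 96 h PWD fell by 0.34 on the log2 scale, or 1.27-fold (adjusted p = 0.024), but this call was lost in 5 of 21 alternatives, over which the adjusted p ran from 0.0054 to 0.1. These 5 were the fit of the compared groups only (0.057) and leaving out replicate 1 (0.067) or 3 (0.053) of 96 h or replicate 3 (0.072) or 4 (0.1) of 24 h. In bulk leaves, a lower share of the cells that carry a transcript and less of it per cell cannot be told apart, for this and every gene below.

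DPE1 also peaked at 12 h and was below its 2 h level from 24 h on: its mean signal was 123 ± 14.8 at 2 h, 256 ± 25.1 at 12 h and 39.7 ± 6.95 at 96 h (SD, n = 4 each). In replicates 1 to 4 its signal was 128, 141, 113 and 109 at 2 h. At 4 h it was 233, 225, 211 and 202, and at 12 h 293, 235, 250 and 247. All 4 h samples lay above all 2 h samples, while the lowest 12 h sample lay just above the highest 4 h sample. At 24 h the signals were 54.0, 61.7, 67.3 and 82.8, all below the lowest at 2 h. They were 60.8, 52.1, 56.0 and 62.1 at 48 h, overlapping 24 h, and 44.8, 29.6, 43.7 and 40.6 at 96 h, below every sample of 24 and 48 h. The mature samples had signals of 91.2 and 62.0, on both sides of the highest developing sample at 24 h.

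DPE1 rose 1.72-fold from 2 to 4 h (log2 change 0.78 ± 0.124, limma, adjusted p = 0.00021) and stood 2.01-fold above 2 h at 12 h (adjusted p = 2.9e-07). The step from 4 to 12 h was 0.22 on the log2 scale, with an interval of -0.03 to 0.48, and was not called (limma, adjusted p = 0.18). From 12 to 24 h DPE1 fell by 1.81 on the log2 scale, or 3.50-fold (limma, adjusted p = 2.9e-12), and 0.586% of all probe sets tested had a lower value in that contrast. At 24 h against 2 h it fell by 0.80, which is 1.74-fold (limma, adjusted p = 4.8e-05), and from 24 to 96 h by 0.62, which is 1.54-fold (adjusted p = 0.0017). All 5 of these calls were kept in each of the 21 alternatives tried. The highest mean of DPE1 over the 7 groups, at 12 h, was 6.45 times the lowest, at 96 h, and for PWD the same ratio was 3.71.

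**Figure D1:**
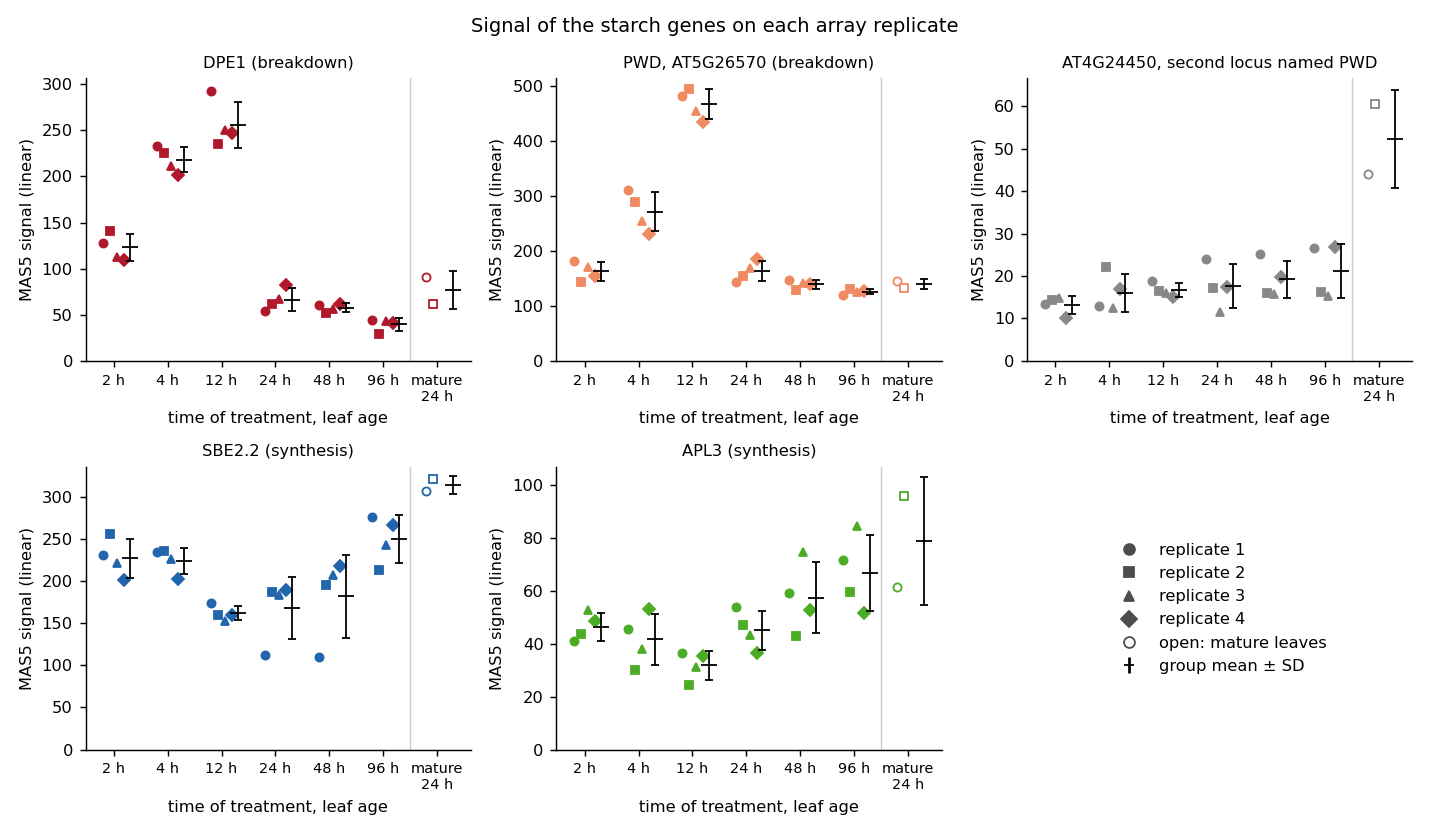
Signal of DPE1, PWD (AT5G26570), AT4G24450, SBE2.2 and APL3 in each replicate (symbols) with the group mean and SD (bar and whiskers), by time of treatment in developing leaves and in mature leaves at 24 h. The vertical axes are linear, begin at 0 and differ between genes. PWD and DPE1 peak at 12 h, at 467 and 256, and the highest means of SBE2.2 and APL3, 314 and 78.6, are in mature leaves.

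The breakdown genes thus kept different distances to one another over time. Within each replicate, DPE1 minus PWD on the log2 scale averaged -0.38 at 2 h and -0.30 at 4 h. It then widened to -0.84 by 12 h, with -1.19, -1.14 and -1.47 in the 24, 48 and 96 h groups and -0.81 in mature leaves. These differences describe how the gap moved from one group to the next, not which transcript was more abundant. The values at 24 h (-1.25 to -1.08) did not overlap those at 2 h (-0.56 to -0.02), and no test was made of this difference.

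AT4G24450, the other locus named PWD, also carries the synonym ATGWD2, and it had a low signal in developing leaves: its group means ran from 13.2 ± 2.12 at 2 h to 21.2 ± 6.33 at 96 h (SD, n = 4 each). The 2 mature samples had signals of 44.1 and 60.5, above all 4 developing replicates at 24 h, which had 24.1, 17.3, 11.5 and 17.4. It lay below the filter and was therefore not in the main fit. Fitted with no filter on low signal, it was higher in mature than in developing leaves by 1.18 on the log2 scale (limma, adjusted p = 2e-05) and was not called in any of the 7 time contrasts, where its adjusted p ran from 0.46 to 1. The 12 h peak of PWD was thus not seen in the signal of this locus, which was 16.6 ± 1.65 at 12 h.

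SBE2.2, in starch synthesis, moved less than the breakdown genes and had its lowest group mean where theirs were highest: its signal was 227 ± 23.0 at 2 h and 162 ± 8.56 at 12 h (SD, n = 4 each). In replicates 1 to 4 it was 231, 256, 221 and 201 at 2 h and 234, 236, 226 and 202 at 4 h. At 12 h it was 174, 160, 153 and 160, so that every 12 h sample lay below every sample of 2 and 4 h. At 24 h the signals were 112, 187, 183 and 189, and at 48 h 110, 195, 207 and 218. In both groups replicate 1 was far below the other samples. The means of 168 at 24 h and 182 at 48 h came from samples on both sides of the 12 h values. At 96 h the signals were 276, 213, 243 and 267, all above the 24 h samples, and the mature samples, at 307 and 321, lay above every developing sample. The highest group mean was 1.94 times the lowest.

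SBE2.2 fell by 0.46 ± 0.155 on the log2 scale at 12 h against 2 h, which is 1.38-fold (limma, adjusted p = 0.019). The call ended without 2 h replicate 2 (adjusted p = 0.064, the highest of its 21 alternatives, which began at 0.00061). Against 4 h, SBE2.2 fell 1.36-fold at 12 h (limma, adjusted p = 0.027), and this call was lost in 7 of 21 alternatives. It ended without 4 h replicate 1 (0.057), 2 (0.061) or 3 (0.051), without 12 h replicate 2 (0.052), 3 (0.063) or 4 (0.052), or with only the second of the 2 arrays titled 24 h replicate 1 (0.063), in a range of 0.0014 to 0.063. From 2 to 4 h the difference was -0.01, with an interval of -0.33 to 0.30. At 24 h against 2 h it was -0.44 (limma, adjusted p = 0.066), and at 24 h against 12 h 0.03 (adjusted p = 0.92), so no return by 24 h was called. Both values rested in part on the low 24 h replicate 1, at 112. The other 24 h samples, at 187, 183 and 189, lay above every 12 h sample. With 1 replicate left out the change ran from -0.04 to 0.20 against 12 h and from -0.50 to -0.27 against 2 h. Neither was called in any of its 21 alternatives.

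From 24 to 96 h SBE2.2 rose 1.48-fold, with a log2 change of 0.57 ± 0.155 (limma, adjusted p = 0.02). The rise rested in part on the low 24 h replicate 1: without it the log2 change was 0.40 and the adjusted p 0.082. The call also ended without 96 h replicate 1 (0.066) or 96 h replicate 4 (0.057), and over 21 alternatives the adjusted p ran from 0.015 to 0.082. The 2 arrays averaged as 24 h replicate 1 had SBE2.2 signals of 150 and 83.6. On these 2 arrays and on 48 h replicate 1 the log2 ratio of the 3′ to the 5′ actin control was 0.97, 1.22 and 1.09, the highest of their groups. A second, older pair of actin controls did not share this order: its ratio was 1.64 and 1.78 on the 24 h arrays, where other replicates had 1.73 to 2.07, and 1.77 on 48 h replicate 1, the lowest of that group. The part of either ratio in the low SBE2.2 signals was not tested.

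APL3 had a lower and more variable signal, with its lowest group mean, 31.8 ± 5.37, also at 12 h, and its highest, 78.6 ± 24.1 (SD, n = 2), in mature leaves. In replicates 1 to 4 its signal was 41.0, 43.5, 52.7 and 48.6 at 2 h. At 4 h it was 45.5, 30.2, 37.8 and 52.9, and at 12 h 36.4, 24.5, 31.3 and 35.2. The 12 h samples lay below all 2 h samples, but the 4 h samples overlapped both groups. At 24 h it was 54.0, 46.9, 43.3 and 36.4, at 48 h 59.2, 42.8, 74.6 and 52.7, and at 96 h 71.7, 59.3, 84.3 and 51.6. The mature samples had signals of 61.5 and 95.6. Ordered by mean, each of the 7 groups overlapped the next one in APL3.

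APL3 fell by 0.44 ± 0.164 on the log2 scale at 12 h against 2 h, or 1.35-fold (limma, adjusted p = 0.036). The call was lost in 6 of 20 alternatives, with adjusted p from 0.017 to 0.13 over all 20. It ended with a pseudocount of 50 (0.059), with no filter (0.068) and after leaving out replicate 3 (0.098) or 4 (0.076) of 2 h or replicate 2 (0.13) or 3 (0.066) of 12 h. At 24 h against 12 h the log2 change was 0.40, with an interval of 0.06 to 0.74 (limma, adjusted p = 0.053), and 7 of 20 alternatives called it, with adjusted p from 0.033 to 0.17. One of the 7 was the fit with the replicate number as a block (adjusted p = 0.048), and leaving out 12 h replicate 1 (0.048) or 24 h replicate 4 (0.033) also gave a call. At 96 h against 24 h the log2 change was 0.47 (limma, adjusted p = 0.074), and 4 of 20 alternatives called it, in a range of 0.035 to 0.24. Leaving out 24 h replicate 1 (0.049) or 96 h replicate 4 (0.047) was among these.

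Set side by side, the breakdown and synthesis genes moved in opposite directions in some intervals and not in others. At 4 h against 2 h both breakdown genes were higher, where 1.6% of all probe sets tested were called higher and 1.18% lower, and neither synthesis gene was called. At 12 h against 2 h all 4 genes were called, DPE1 and PWD higher and SBE2.2 and APL3 lower, and in each the samples of both times did not overlap. The background there was large, with 20.4% of probe sets called higher and 18.4% lower. The log2 changes of SBE2.2 and APL3 were also moderate among all probe sets, of which 12.3% and 13.2% had a lower value, while 97.9% had a lower value than DPE1 and 99.4% than PWD. At 12 h against 4 h PWD was called higher and SBE2.2 lower, against a background of 18% and 15.4%.

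At 24 h against 12 h the breakdown genes fell, where 22.2% of probe sets were called lower and 20% higher, and no synthesis gene was called. At 24 h against 2 h DPE1 was the 1 gene called, lower, beside a background of 6.29% lower and 5.85% higher. At 48 h against 24 h none of the 4 was called by limma, and PWD alone had an unadjusted p under 0.05 (0.04). That contrast had 0.0586% of probe sets called higher and 0.00733% lower, 9 in all, with 716 at an unadjusted p under 0.05. At 96 h against 24 h DPE1 and PWD were lower and SBE2.2 higher, where 4.35% of probe sets were called lower and 4.62% higher. This 96 h count of 3 dropped to 1 without 96 h replicate 1. Over the 6 times together all 4 genes passed the moderated F test (limma, adjusted p = 1.5e-15 for DPE1, 1.5e-14 for PWD, 0.0036 for SBE2.2 and 0.0011 for APL3), as did 57.7% of all probe sets tested. The contrasts above share samples, so they are not separate evidence of one pattern.

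**Figure D2:**
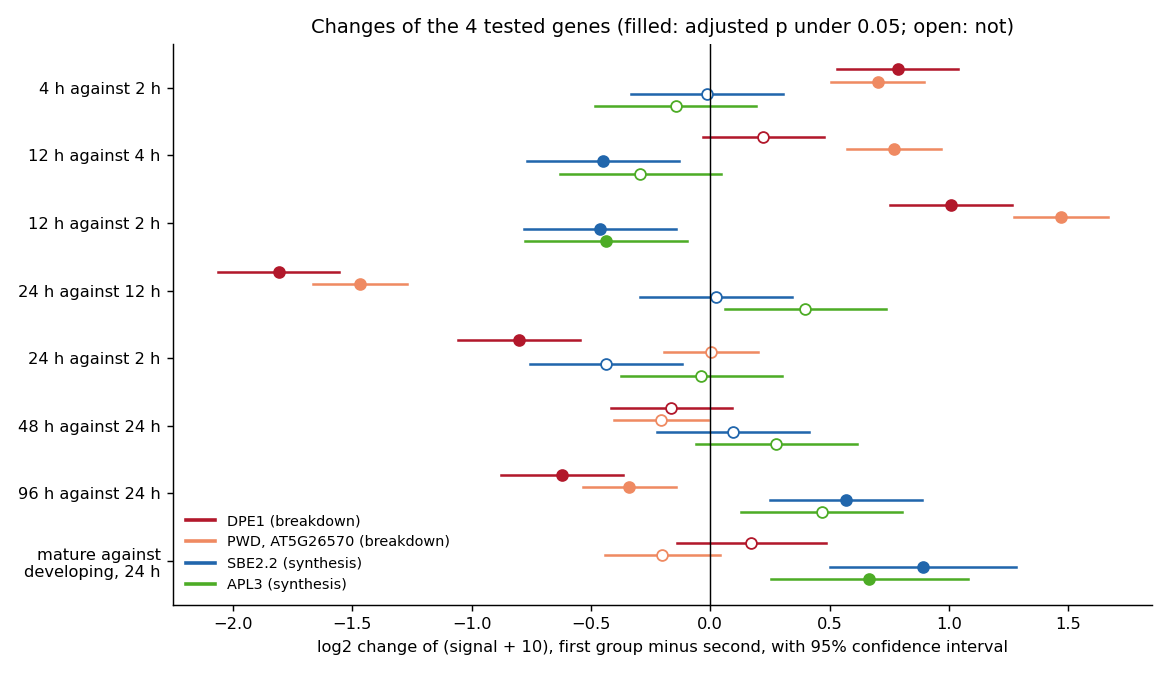
Log2 change of (signal + 10) of the 4 tested genes in the 8 contrasts, first group minus second (horizontal axis), with the 95% confidence interval as a line; filled points have a limma adjusted p under 0.05 over all probe sets, open points do not. At 12 h against 2 h the filled points of DPE1 (1.01) and PWD (1.47) lie right of 0 and those of SBE2.2 (-0.46) and APL3 (-0.44) left of it.

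Across the 26 replicates of all 7 groups, DPE1 and PWD had a Pearson correlation of 0.89 on the log2 scale. APL3 ran the other way, with -0.70 to DPE1 and -0.75 to PWD. SBE2.2 was only loosely related to any of them, at -0.14 to DPE1, -0.34 to PWD and 0.39 to APL3. These values are descriptions, since the replicates share their group means and each pair of values comes from 1 array. Taken around the group means, the correlation of DPE1 and PWD was 0.38, that of APL3 was -0.22 to DPE1 and -0.35 to PWD, and that of SBE2.2 was 0.39 to DPE1, 0.14 to PWD and -0.22 to APL3. Within groups, SBE2.2 thus did not run against the breakdown genes, though such deviations between replicates may be technical.

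**Figure D3:**
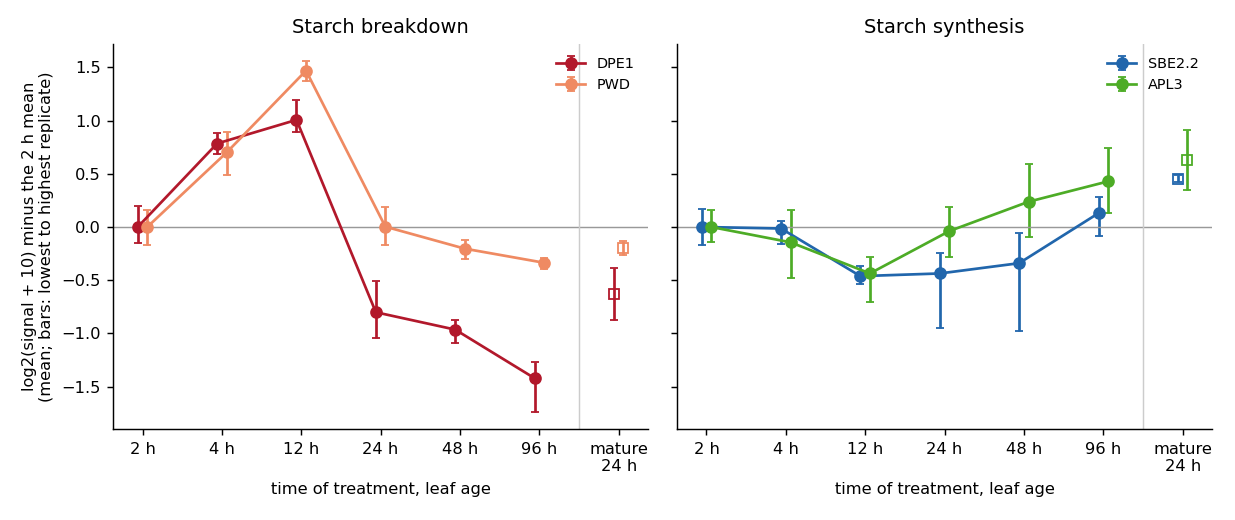
Group mean of log2(signal + 10) minus its mean at 2 h (vertical axis) for the 4 tested genes, by time of treatment in developing leaves and in mature leaves at 24 h (horizontal axis, evenly spaced and not to scale); breakdown genes are on the left and synthesis genes on the right, and whiskers run from the lowest to the highest replicate. DPE1 and PWD stand at 1.01 and 1.47 at 12 h and at -1.42 and -0.34 at 96 h, and SBE2.2 and APL3 at -0.46 and -0.44 at 12 h and at 0.13 and 0.43 at 96 h.

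Mature leaves differed from developing leaves of the same time in the synthesis genes. SBE2.2 was 1.86-fold higher in mature leaves, with a log2 change of 0.89 ± 0.19 (limma, adjusted p = 0.00018), a call kept in each of its 20 alternatives. APL3 was 1.59-fold higher (log2 change 0.67 ± 0.201, limma, adjusted p = 0.0052), but without mature replicate 2 the log2 change was 0.38 and the call ended (adjusted p = 0.2, in a range of 0.0021 to 0.2). It also ended when developing replicates 1 and 2 alone stood for 24 h (0.055). DPE1 had a log2 change of 0.17, with an interval of -0.14 to 0.48 (limma, adjusted p = 0.33), and PWD one of -0.20, with an interval of -0.44 to 0.04 (adjusted p = 0.13). In this contrast 27.1% of all probe sets were called higher and 37.5% lower, and the median change of all probe sets was -0.10, so the values of SBE2.2 and APL3 stand slightly farther from the rest than from 0. Of all probe sets, 86.8% had a lower change than SBE2.2 and 82% than APL3. The difference was not particular to synthesis genes. AT4G24450 (1.18, with no filter) and AMY1 of the breakdown list (1.22, below) were also higher, and AT5G39790 of the synthesis list (-0.58, below) was lower. Only 2 mature samples were measured, which limits the precision of each value.

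Other genes were taken from lists of 25 breakdown and 19 synthesis genes, of which 3 and 4 had a named probe set. Being on a list does not show that a gene acts on starch in leaf chloroplasts. In the breakdown list the third gene was AMY1, an alpha-amylase. Its developing means ran from 22.1 to 37.6, with no call in any time contrast. In mature leaves it had signals of 61.9 and 93.3 and was called higher by 1.22 on the log2 scale (limma, adjusted p = 1.1e-05). Its mean signal, 30.1, lay just above the filter (27.8). The high mature samples enter that mean, so for AMY1 the filter was not independent of this contrast. With no filter on low signal the log2 change was also 1.22 and the call was kept. Of the 3 genes of the breakdown list that passed the filter, 1 was thus called higher in mature leaves, as were 27.1% of all probe sets. AMY1 did not share the 12 h peak of DPE1 and PWD. In the synthesis list APL4, another large subunit of ADP-glucose pyrophosphorylase, had group means of 10.9 to 16.4 and was not tested.

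The remaining synthesis locus is called AT5G39790, since the annotation tables pair it with no symbol. Its signal was 126 ± 11.4 at 2 h, 126 ± 18.4 at 4 h and 51.6 ± 6.18 at 12 h (SD, n = 4 each), a fall by 1.15 on the log2 scale at 12 h against 2 h (limma, adjusted p = 8.7e-08). It rose again by 0.67 from 12 to 24 h (limma, adjusted p = 0.00016), to 88.1 ± 12.9. At 96 h its signal was 64.5 ± 6.68, with no overlap with 24 h. That log2 change, -0.39, was not called (limma, adjusted p = 0.059), though 3 of 21 alternatives called it. Its direction was that of DPE1 and PWD, and not that of SBE2.2 and APL3. All 3 tested genes of the synthesis list were thus called lower at 12 h than at 2 h, with a list median of -0.46, where 18.4% of all probe sets were called lower. For APL3 this call was lost in 6 of 20 alternatives. In mature leaves AT5G39790 went against SBE2.2 and APL3: its log2 change against developing leaves at 24 h was -0.58 (limma, adjusted p = 0.0024), with the call lost without mature replicate 2 (0.078, in a range of 8.6e-05 to 0.078). With 3 tested genes in each list, the medians describe these genes and not the pathway.

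Of a list of 14 genes of sucrose synthesis, cleavage and transport and of related sugar steps, ATSPS4F, of the sucrose phosphate synthase family, was the 1 with a named probe set. Its signal rose from 22.9 ± 10.8 at 2 h to 57.9 ± 15.4 at 12 h (log2 change 1.07, limma, adjusted p = 7.4e-05). Unlike the breakdown genes it did not fall back, with 59.1 ± 17.4 at 24 h and 122 ± 30.6 at 96 h (SD, n = 4 each). The rise from 24 to 96 h was 0.94 on the log2 scale (limma, adjusted p = 0.0025). In mature leaves its signal was 207 ± 38.8 (SD, n = 2), which is 1.67 above developing leaves at 24 h (adjusted p = 6.7e-07).

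For each gene, the 3 named genes with the most similar profile over the 26 replicates were taken by Pearson correlation on the log2 scale, among 7430 named candidates. Nearest to DPE1 were AT4G30660 (0.96), AT3G15630 (0.96) and FTSZ2-1, a plastid division gene (0.95). Nearest to PWD were AT1G26665 (0.96), AT1G06890 (0.95) and SCPL49, a serine carboxypeptidase-like gene (0.95). The synthesis genes had looser neighbours. SBE2.2 was nearest to AT3G15570 (0.85), the MAP kinase gene ATMPK8 (0.84) and FUG1, a plastid translation initiation factor (0.80), and APL3 to AT1G22140 (0.84), AT3G29760 (0.83) and AT1G18460 (0.81). A high correlation did not mean changes of like size: AT3G15630 had a mean signal of 792 ± 143 at 12 h and 40.7 ± 4.81 at 24 h, a wider drop than that of DPE1.

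**Figure D4:**
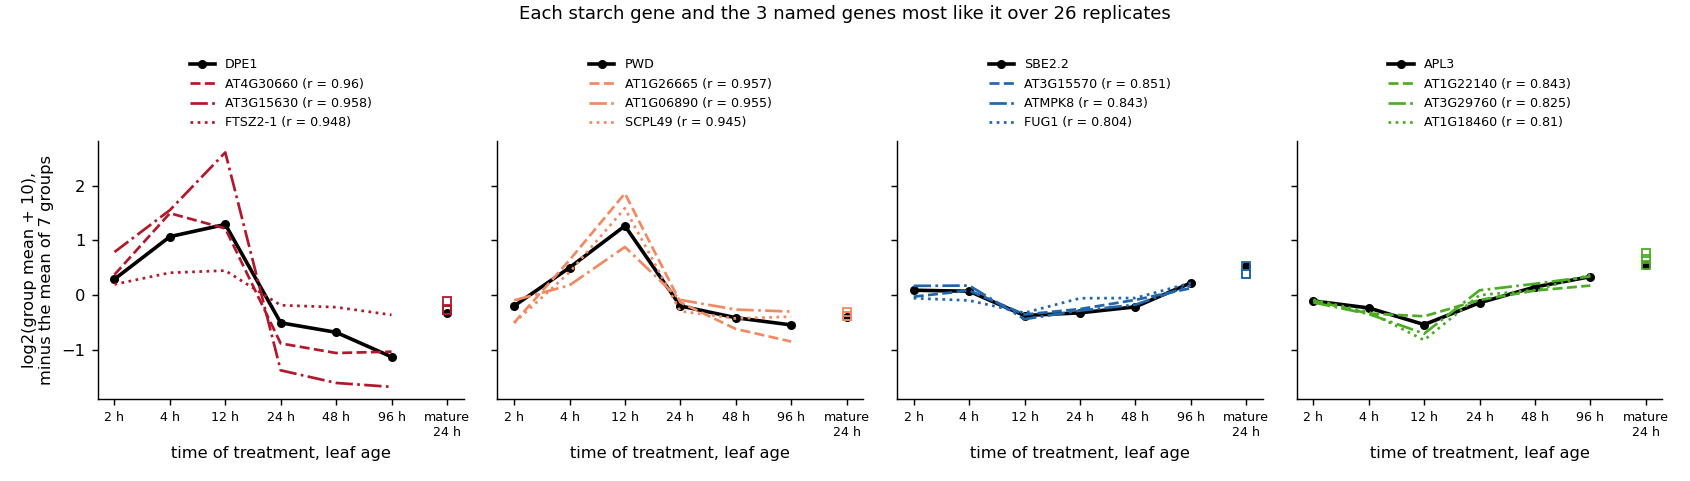
Profiles of each starch gene (black) and the 3 named genes most like it (coloured), as log2(group mean + 10) minus its mean over the 7 groups (vertical axis), by time of treatment (lines) and in mature leaves at 24 h (separate points). Numbers in the keys are Pearson correlations over 26 replicates, from 0.96 for AT4G30660 with DPE1 to 0.80 for FUG1 with SBE2.2.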

How the data were processed

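The deposited values are one intensity per probe set and array of the Affymetrix ATH1 array, made with MAS5 per the submitters' processing notes, for which no version is given in the sources used here. Each array was found to have a 2% trimmed mean of 100. Detection calls were not used. Probe sets were named from a table of the array's annotation and the names of assembly TAIR10.1, and only where 1 gene was listed (13513 of 22810).

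Of 28 arrays 27 were grouped by their labels. The 2 arrays titled 24 h replicate 1 differed by an SD of 0.285 on the log2 scale, within the range of other pairs (0.236 to 0.442), and counted as 1 replicate, so their signals are means of logs. An array titled 4 h replicate 1 whose treatment note gives ES, where the others give AS, was left out of all groups, since these letters are undefined.

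The 64 controls were dropped, 10 was added to each signal before log2, and the 13647 probe sets with a mean signal above the 40th percentile (27.8) were fitted with limma 3.58.1 in R 4.3.3 (lmFit and eBayes with trend), 7 groups and 26 replicates in 1 model with 19 residual degrees of freedom. Tests were two-sided, with Benjamini-Hochberg adjustment over all probe sets. The procedure was tested on simulated data. Alternatives changed the pseudocount, filter, scaling, samples fitted, weights, trend, handling of the doubled array and replicates. The number of arrays limits the precision.

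Named are the genes of the rule, the genes of the starch and sucrose lists that have a named probe set, and the 3 genes most like each. Members and lists were chosen with earlier results of these data known. Replicate numbers are shared between groups. Deviations of same-numbered samples correlated above 0.1 in every pair for 12 h against 4 h (0.147 to 0.388) and 48 h against 24 h (0.13 to 0.619), and not in other contrasts. The main fit did not pair samples in any contrast. The replicate number entered as a block only in 1 alternative, for all contrasts together.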

Additional observations from a re-analysis of the deposited data

Results flagged for a closer look

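Among 30 sets of 4 replicates checked for a sample standing apart from the rest, 1 was found, where chance flags about 1 in 20. It was SBE2.2 at 24 h, where the signal of replicate 1 was 112 and the others lay between 183 and 189. The gap to the nearest sample was 0.922 of the range, above Dixon's critical value for a group of this size at the 95% level. Its arrays carry the highest actin 3′ to 5′ log2 ratios of the group, 0.97 and 1.22, while an older pair of actin controls gave 1.64 and 1.78 on them and 1.73 to 2.07 in the other replicates. The part of either ratio was not tested.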

How the results depend on the processing

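Each of 36 results for the 4 genes was recomputed under up to 36 alternatives, 803 values in all. Of these 768 kept their direction and side of the threshold or stayed uncalled, 24 lost a call, 11 gained one and none of the called values turned. The fit with the replicate number as a block changed 1 call of the 4 genes, APL3 at 24 h against 12 h (limma, adjusted p = 0.048). This made 3 genes called there in place of 2. The same fit called AT5G39790 lower at 96 h than at 24 h (limma, adjusted p = 0.02, and 0.059 without the block, in a range of 0.02 to 0.2). The 9 probe sets called at 48 h against 24 h became 4 with a pseudocount of 1, 2 with the filter at the 60th percentile, 35 with array weights, 5 with the first array of 24 h replicate 1 only and 24 with replicate 1 out of every group, a choice made after seeing the data. With 1 replicate left out they ran from 0 to 17. The 1223 called at 96 h against 24 h became 1955 with array weights, and 728 to 1356 with 1 replicate left out, the lowest without 24 h replicate 3. The number of the 4 genes called fell from 2 to 1 at 12 h against 4 h with the second array of 24 h replicate 1 only. In mature leaves it fell from 2 to 1 with the filter at the 60th percentile, under which APL3 was not tested, and with developing replicates 1 and 2 alone, also chosen after seeing the data. With 1 replicate left out it ran from 1 to 2 at 12 h against 4 h, from 1 to 3 at 96 h against 24 h and from 1 to 2 in mature leaves, and at 12 h against 2 h from 3 to 4. AT4G24450 and APL4 had mean signals below the filter and were not in the main fit, and 2 mature samples limit the comparison of mature with developing leaves.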

Other observations

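The array titled 4 h replicate 1 with ES in its treatment note, in no group, had signals of 251 for DPE1, 313 for PWD, 227 for SBE2.2, 57.3 for APL3 and 17.5 for AT4G24450. Its values for DPE1, PWD and APL3 lay above the highest of the 4 h samples, which were 233, 310 and 52.9, and that for SBE2.2 lay within their range of 202 to 236.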
